A study of Mus musculus with 17 samples.

Results

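Drd1, Tac1, Drd2, Adora2a, Penk, Gpr6, Ppp1r1b, Rgs9 and Syndig1l are marker genes of striatal medium spiny neurons. These 9 genes were picked by symbol from the 52850 gene symbols in the count tables of 12 mouse RNA-seq libraries. They were chosen with their high level in the wild-type SVZ libraries and their low level in the other 3 groups already known, so the values of these 9 genes set against SVZ below are a description with no test. Each of them had at least 1 CPM (counts per 1000000, after TMM scaling in edgeR) in at least 2 libraries and so was among the 18329 genes tested. Gpr6 met that minimum through the SVZ libraries alone.

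Medium spiny neurons are the GABAergic output neurons of the striatum, and they read dopamine through receptors that act on cyclic AMP in opposite directions. Neurons of the direct pathway carry the D1 receptor, which stimulates adenylyl cyclase, and release substance P. Those of the indirect pathway carry the D2 receptor, which inhibits it, together with the adenosine receptor Adora2a, which stimulates it, and release enkephalin. Both kinds share the inhibitor DARPP-32 and the G-protein regulator RGS9 downstream of the receptors.

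The study concerns YAP fusion proteins in supratentorial ependymoma, a glial tumour of the forebrain, and YAP is a coactivator that binds DNA through TEAD factors. The YAP-M group held 4 libraries of brain tumours that arose after in utero electroporation of a YAP-M plasmid, that is, delivery of DNA into the embryonic brain. The YMdIDR group held 3 libraries made with YAP-MΔIDR, the same construct without its IDR. The NSC-YAP group held 2 libraries of cultured, YAP-overexpressing neural progenitors made from embryonic stem (ES) cells. The SVZ group held 3 wild-type libraries, and SVZ is the usual abbreviation of the subventricular zone, the germinal layer that borders the striatum. The sources used here do not give strain, age, sex or the driver of each construct, nor whether the libraries of a group are separate animals. P-values therefore measure the spread between these libraries, which may be technical.

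Labels and markers did not always match. On the YMdIDR labels stand brain tumour tissue and, in another field, ES-derived progenitors. The summed level of 6 microglial markers was 786 to 934 CPM in YMdIDR and 759 to 1008 CPM in YAP-M, against 36.4 to 37.5 CPM in the NSC-YAP culture. The SVZ labels name brain tumour tissue beside wild-type treatment. Summed over 10 neuroblast and progenitor markers, the level was 158 to 189.9 CPM in SVZ, at the low end of the 156 to 414 CPM of the other 9 libraries. Libraries held 20784130 to 25463303 counts, so 3 counts correspond to 0.11 to 0.147 CPM. Replicate 1 of YMdIDR stood apart from the other 2 for 5 of the genes (Drd2, Gpr6, Tac1, Ppp1r1b and Syndig1l), and results that rest on it are given with and without it.

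RefSeq (GRCm38.p6) gave a promoter window for 5 of the 9 genes, Drd1, Tac1, Drd2, Gpr6 and Rgs9. The 250 bases before the start site are shown for 3 receptor genes and 1 peptide gene of the direct and indirect pathways. Bases read 5′ to 3′ on the gene's strand, and capitals mark motif matches.
Drd1 (chr13:54055659-54055908, minus strand): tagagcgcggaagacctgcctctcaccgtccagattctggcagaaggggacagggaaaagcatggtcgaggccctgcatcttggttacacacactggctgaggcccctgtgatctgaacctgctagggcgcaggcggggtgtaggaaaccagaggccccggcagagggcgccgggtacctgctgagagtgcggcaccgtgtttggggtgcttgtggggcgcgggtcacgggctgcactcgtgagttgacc
Tac1 (chr6:7554811-7555060, plus strand): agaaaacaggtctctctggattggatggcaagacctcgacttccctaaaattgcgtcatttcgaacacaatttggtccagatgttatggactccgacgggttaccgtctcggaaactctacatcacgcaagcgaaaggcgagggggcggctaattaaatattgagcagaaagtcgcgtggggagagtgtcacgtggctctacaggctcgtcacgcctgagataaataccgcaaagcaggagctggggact
Drd2 (chr9:49340153-49340402, plus strand): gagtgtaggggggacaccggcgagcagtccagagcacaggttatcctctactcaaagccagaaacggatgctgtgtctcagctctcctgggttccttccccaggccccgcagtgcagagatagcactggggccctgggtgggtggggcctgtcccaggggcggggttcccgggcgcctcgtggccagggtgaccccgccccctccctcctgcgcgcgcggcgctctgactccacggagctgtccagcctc
Gpr6 (chr10:41072291-41072540, minus strand): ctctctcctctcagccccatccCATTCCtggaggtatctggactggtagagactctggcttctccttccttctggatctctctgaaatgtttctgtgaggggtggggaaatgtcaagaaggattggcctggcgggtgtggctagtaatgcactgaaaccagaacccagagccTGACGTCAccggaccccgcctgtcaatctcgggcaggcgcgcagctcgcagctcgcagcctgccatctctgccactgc
Gpr6 held the capitalised CATTCC, the reverse strand of the TEAD motif GGAATG, with its first base at position -228 from the start site. It also held the cyclic AMP response element TGACGTCA at -78, a motif that 1.79% of 32851 RefSeq promoter windows of 300 bases contain on either strand. Across those windows 14.7% held GGAATG, 7.81% the AP-1 motif TGANTCA and 13.6% TATAAA. No match to these 4 motifs was found in the windows of Drd1, Drd2 and Tac1, and Rgs9 had a TATAAA at -195. The median window had 7 CpG. The 300 bases held 23 in the Drd1 window shown, 22 in Tac1, 23 in Drd2, 13 in Gpr6 and 19 in Rgs9. Another RefSeq window of Drd1 (chr13:54054731-54055030), which is not shown, held 6. These letters describe the windows only.

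All 9 genes were high in SVZ, and their order there is read per exon length (RPKM, CPM per kilobase of the exonic length in the files). Penk, with 342 ± 32.9 RPKM (SD, n = 3), and Ppp1r1b, with 183 ± 13.7 RPKM, led the order. Syndig1l followed at 41.8 ± 5.61 RPKM, then Drd2 at 30.04 ± 1.63 RPKM and Adora2a at 29.2 ± 1.60 RPKM, whose difference was within their spread. Rgs9 had 24.8 ± 0.910 RPKM, Drd1 21.9 ± 0.932 RPKM, Tac1 17.1 ± 1.36 RPKM and Gpr6 11.9 ± 0.539 RPKM. In the YAP-M tumours Penk (8.61 ± 3.5 RPKM, n = 4) and Ppp1r1b (6.19 ± 2.94 RPKM) again came first, within each other's spread, and Tac1 was the next at 1.09 ± 0.494 RPKM. In NSC-YAP the first place went to Syndig1l, with 5.15 ± 0.415 RPKM (n = 2), and Penk was the fifth at 0.461 ± 0.0171 RPKM.

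Drd1 encodes the D1 receptor of the direct pathway and lies on mouse chromosome 13 (54051183 to 54055705, minus strand, mm10). It had 3.20, 3.19, 1.24 and 0.594 CPM in the YAP-M tumours, 1.03, 0.676 and 0.574 CPM in YMdIDR and 1.51 and 1.79 CPM in NSC-YAP, against 83.1, 76.6 and 78.2 CPM in SVZ. The low groups overlapped one another, apart from NSC-YAP above YMdIDR, and replicates 1 and 2 of YAP-M lay above replicates 3 and 4. The fitted log2 fold change to SVZ was -5.26 ± 0.44 (SE) for YAP-M, -6.70 for YMdIDR and -5.58 for NSC-YAP.

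Tac1 encodes the precursor of substance P (chromosome 6, 7554879 to 7565834, plus strand). Its level was 2.13, 2.41, 5.07 and 5.27 CPM in YAP-M, 1.11, 0.0901 and 0.177 CPM in YMdIDR and 0 in both NSC-YAP libraries, against 59.3, 53.1 and 62.1 CPM in SVZ. The 4 groups did not overlap, and within YAP-M the higher libraries were replicates 3 and 4, the reverse of Drd1. YAP-M kept 3.67% to 9.06% of the SVZ mean, the highest share of any of the 9 genes in replicates 3 and 4. With no count in NSC-YAP and a floor of 3 counts over that group, Tac1 was at least 950-fold lower in NSC-YAP than in SVZ.

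Drd2, the D2 receptor gene of the indirect pathway, lies on chromosome 9 (49340627 to 49408177, plus strand). It had 0.736, 1.48, 1.41 and 1.19 CPM in YAP-M, 1.07, 0.135 and 0.132 CPM in YMdIDR and 0.0814 and 0 CPM in NSC-YAP, against 76.5, 72.4 and 80.7 CPM in SVZ. In YMdIDR 25 of 31 counts came from replicate 1, and NSC-YAP held 2 counts in all. Against 4922 counts in SVZ, those 2 counts gave a ratio of 1875 in favour of SVZ (95% counting interval 519 to 15490).

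Adora2a encodes the adenosine receptor of the indirect pathway (chromosome 10, 75316877 to 75334784, plus strand). It had 3.27, 4.56, 1.54 and 1.41 CPM in YAP-M, 1.88, 1.26 and 1.81 CPM in YMdIDR and 3.05 and 3.06 CPM in NSC-YAP, against 88.4, 85.0 and 94.7 CPM in SVZ. The YAP-M range spanned both NSC-YAP values, and 2 of its libraries lay within the YMdIDR range. Both kinds of library that were low in Drd2, YMdIDR replicates 2 and 3 and the NSC-YAP pair, thus still held Adora2a at 1.26 CPM or more.

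Penk encodes proenkephalin (chromosome 4, 4133531 to 4138819, minus strand). The level was 10.7, 21.6, 15.4 and 8.68 CPM in YAP-M, 5.26, 2.48 and 3.80 CPM in YMdIDR and 0.773 and 0.734 CPM in NSC-YAP, against 608, 502 and 567 CPM in SVZ. The groups fell into 4 steps with no overlap. Gpr6, an orphan receptor that stimulates adenylyl cyclase in indirect-pathway neurons (chromosome 10, 41069977 to 41072285, minus strand), had few counts outside SVZ. Its level was 0.368, 0.630, 0.213 and 0.297 CPM in YAP-M, 0.256, 0 and 0.0442 CPM in YMdIDR and 0.122 and 0.0408 CPM in NSC-YAP, against 22.2, 20.2 and 21.3 CPM in SVZ. These are 40 counts over 4 YAP-M libraries, 7 over 3 YMdIDR libraries and 4 over 2 NSC-YAP libraries, so its order among the low groups rests on few counts.

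Ppp1r1b encodes DARPP-32, the phosphatase inhibitor that protein kinase A switches on (chromosome 11, 98348404 to 98357796, plus strand). It had 24.9, 26.01, 12.7 and 8.94 CPM in YAP-M, 11.4, 2.21 and 2.87 CPM in YMdIDR and 7.20 and 6.89 CPM in NSC-YAP, against 575, 495 and 541 CPM in SVZ. YAP-M overlapped YMdIDR only through replicate 1 of the YMdIDR libraries. Rgs9, which speeds up the switching off of G proteins and has a striatal and a retinal form (chromosome 11, 109225355 to 109298129, minus strand), was low in all groups outside SVZ. Its level was 7.32, 5.48, 3.58 and 3.60 CPM in YAP-M, 3.29, 1.62 and 3.66 CPM in YMdIDR and 3.22 and 3.55 CPM in NSC-YAP, against 159.5, 152 and 164 CPM in SVZ. Gene-level counts do not separate its forms.

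Syndig1l, a membrane protein gene of the Syndig1 family that is enriched in the caudate and putamen (chromosome 12, 84677277 to 84698831, minus strand), departed from the rest in culture. It had 1.69, 1.89, 2.39 and 2.34 CPM in YAP-M, 2.78, 0.270 and 0.353 CPM in YMdIDR and 16.8 and 15.0 CPM in NSC-YAP, against 116, 122 and 148 CPM in SVZ. NSC-YAP lay above every tumour library and kept 13.0% and 11.6% of the SVZ mean, whereas the other 8 genes kept 0 to 3.42% there. The fitted log2 fold change of NSC-YAP to SVZ was -3.02 for Syndig1l, against -9.53 for Penk.

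**Figure D1:**
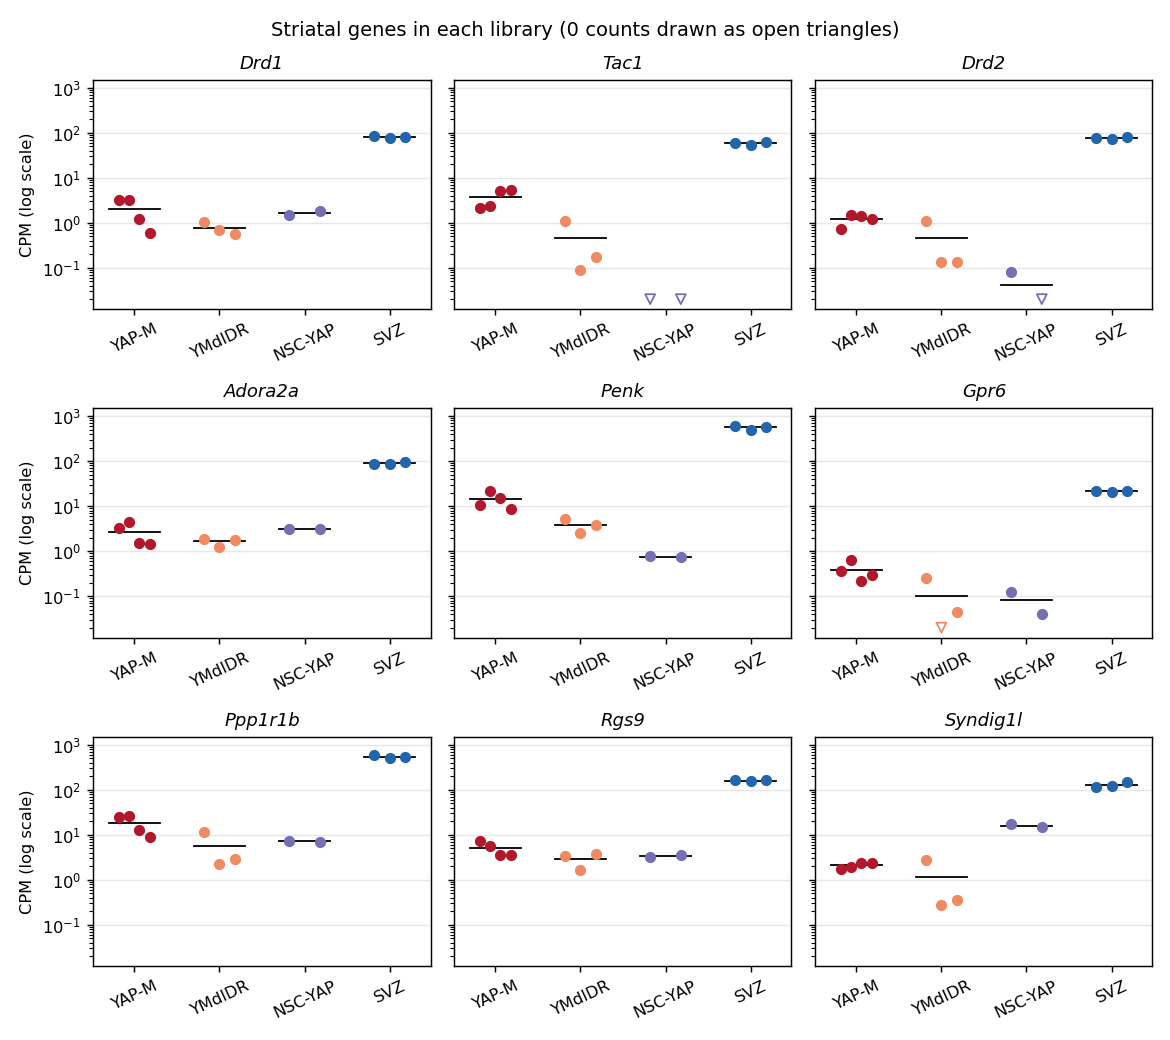
Level of each gene in every library in CPM on a log axis, with 4 YAP-M, 3 YMdIDR, 2 NSC-YAP and 3 SVZ libraries from left to right, points for libraries and bars for group means; open triangles mark 0 counts. The SVZ libraries lie above all others in each panel, Penk and Tac1 separate YAP-M from YMdIDR, and Syndig1l is the gene for which NSC-YAP lies above the tumours.

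Seen together, the genes in each library kept a small share of their SVZ level. The median over the 9 genes was 3.66%, 3.86%, 1.85% and 1.58% of the SVZ mean in YAP-M, 1.91%, 0.411% and 0.534% in YMdIDR and 1.34% and 1.28% in NSC-YAP. By edgeR's call rule, an adjusted p under 0.05 with at least a 1-unit log2 difference, all 9 were lower in each of these groups than in SVZ, beside 28.9%, 29.6% and 27.6% of all tested genes for YAP-M, YMdIDR and NSC-YAP. That count follows from how the genes were chosen. In bulk RNA, fewer medium spiny neurons and less of these RNAs per neuron cannot be told apart.

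Markers of other neurons were set beside these shares. The median over 10 pan-neuronal genes was 9.32%, 4.41%, 7.68% and 14.3% of SVZ in YAP-M, 7.23%, 1.62% and 5.48% in YMdIDR and 2.36% and 2.37% in NSC-YAP. For 10 interneuron genes it was 10.7% to 16.0% in YAP-M, 1.88% to 11.4% in YMdIDR and 0.583% to 1.26% in NSC-YAP. The summed CPM of the 9 genes equalled 10.0%, 20.4%, 7.88% and 3.82% of the pan-neuronal sum in YAP-M, 4.67%, 1.75% and 2.60% in YMdIDR and 4.36% and 3.80% in NSC-YAP, against 30.3%, 28.7% and 31.8% in SVZ. Every library outside SVZ thus had fewer striatal counts per pan-neuronal count than each SVZ library, with the highest share in YAP-M replicate 2. How the 9 genes were chosen favours that direction, so it is a description only. The pan-neuronal sum also depends on single abundant genes. Between NSC-YAP and SVZ, Map2 was not called (log2 fold change -0.58), while every other gene of that list was called lower in NSC-YAP. Between YAP-M and YMdIDR, Stmn2 (-1.38) and Tubb3 (-1.32) were called lower in YAP-M and Map2 (1.44) higher, so the tumour groups also differ in this sum's make-up. Oligodendrocyte markers, which are not neuronal, kept 2.36% to 12.4% in YAP-M, 1.43% to 4.42% in YMdIDR and 0.0280% to 0.0601% in NSC-YAP. The part of any of these cell types in the striatal values was not tested.

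**Figure D2:**
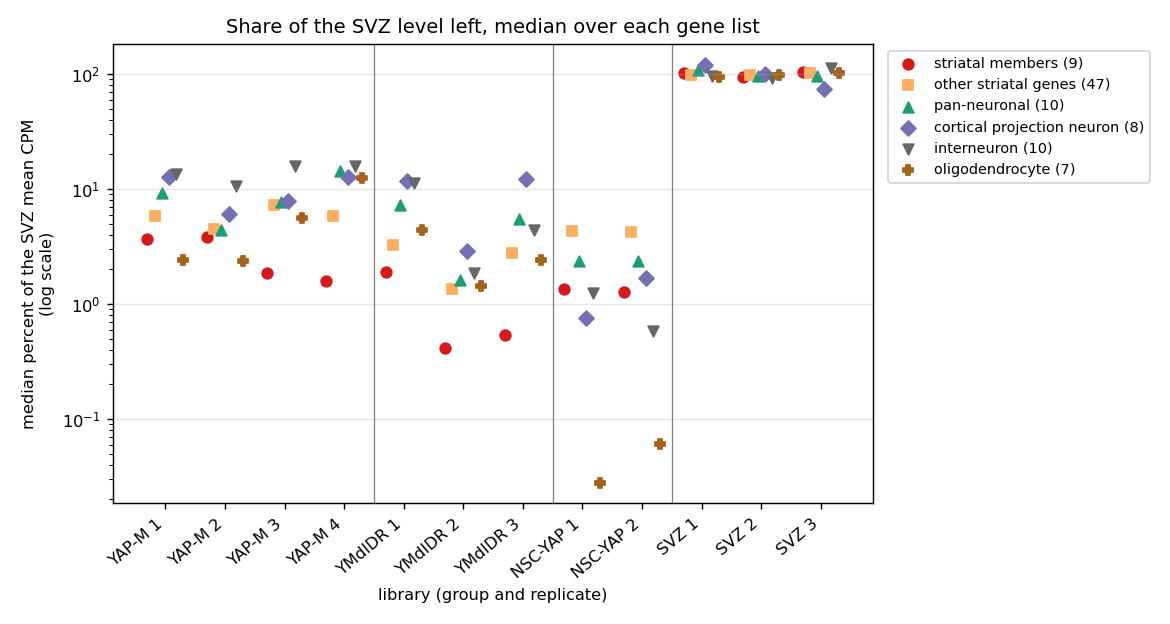
Median percent of the SVZ mean CPM (log axis) in each of the 12 libraries for the 9 striatal genes, 47 other striatal genes and 4 marker lists of neurons and oligodendrocytes. In YAP-M the 9 striatal genes sit between 1.58% and 3.86%, below the medians of the other neuronal lists in every library.

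The comparison of YAP-M with YMdIDR addresses the removal of the IDR from the construct. Both of its groups were among the low groups when the genes were chosen. YAP-M was called higher for 5 of the 9 genes, where 9.61% of all tested genes were called higher and 6.78% lower (edgeR's quasi-likelihood test, Benjamini-Hochberg adjusted over 18329 genes). Gpr6 was 1 of the 5 and passed the filter on low counts through SVZ alone, so among the 8 genes that reached it in the other 9 libraries 4 were called higher. None of the 9 was lower in edgeR or DESeq2, and 0 were lower at an unadjusted p under 0.05. The median log2 fold change of the 9 genes was 1.43, beside 0.01 over all genes tested.

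Penk rose 3.66-fold in YAP-M on group means, 14.1 ± 5.73 CPM in YAP-M against 3.84 ± 1.39 CPM in YMdIDR (SD, n = 4 and 3). In edgeR its log2 fold change was 1.87 ± 0.32 (SE, adjusted p = 0.00106). Tac1 rose with a log2 fold change of 2.98 ± 0.63 (edgeR adjusted p = 0.00397), on means of 3.72 ± 1.68 CPM in YAP-M and 0.459 ± 0.566 CPM in YMdIDR. These are the peptide precursors of the indirect and the direct pathway, and both were called in each of 18 alternative fits. For both, the libraries of the groups did not overlap. How many of all tested genes showed no overlap was not counted.

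Ppp1r1b was called with a log2 fold change of 1.72 ± 0.53 (edgeR adjusted p = 0.0234), Drd1 with 1.43 ± 0.51 (0.0409) and Gpr6 with 1.84 ± 0.68 (0.0466). Their libraries overlapped between the groups. Gpr6 stayed at or under 0.630 CPM in both groups, and with the compared groups alone it was not tested. Ppp1r1b kept its call in 13 of 18 alternative fits, Drd1 in 8 of 18 and Gpr6 in 5 of 17. Drd2, at 1.40 ± 0.56 (0.0634), Adora2a, at 0.71 ± 0.37 (0.142), and Syndig1l, at 0.85 ± 0.56 (0.240), did not pass the test. Rgs9 had an adjusted p of 0.0465 in edgeR with a log2 fold change of 0.81 ± 0.30, under the size that a call needs.

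Replicate 1 of YMdIDR decided several of these values. Without it the log2 fold change in edgeR was 3.11 for Drd2, 3.81 for Gpr6, 2.71 for Syndig1l, 2.83 for Ppp1r1b and 4.74 for Tac1, and 7 of the 9 genes were called higher in YAP-M. Without YAP-M replicate 1, YAP-M replicate 2 or YMdIDR replicate 2 the count was 2, Penk and Tac1. The shares of all genes given above belong to the fit with all libraries, so these counts have no such share beside them. The median over 10 pan-neuronal genes was 7.23%, 1.62% and 5.48% of SVZ in YMdIDR replicates 1, 2 and 3. Drd2 and Tac1 were low in replicates 2 and 3. The part of neuron content in these values was not tested.

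Markers of several other cell types were also higher in YAP-M than in YMdIDR. Of 6 astrocyte markers 5 were called higher, with a median log2 fold change of 1.37: Aldh1l1 (1.74), Slc1a2 (1.5), Slc1a3 (1.48), Aqp4 (1.27) and Gja1 (1.26). Their median was 51.4% to 58.0% of SVZ in YAP-M and 12.9% to 26.9% in YMdIDR, and the summed level was 1934 to 2882 CPM in YAP-M and 537 to 1669 CPM in YMdIDR, without overlap and with no astrocyte marker at 0. Of 5 endothelial markers Cldn5 (1.11) and Pecam1 (1.11) were called higher, on sums of 201 to 272 CPM in YAP-M and 143 to 196 CPM in YMdIDR. Of 5 dopamine neuron markers Slc6a3 (3.08), Th (2.86) and Ddc (1.64) were called higher, and their list summed to 9.08 to 14.1 CPM in YAP-M and 7.57 to 11.0 CPM in YMdIDR. En1 (1.86) and Slc18a2 (-0.53) of that list were not called. The Th call rests on few counts, 58 over the YAP-M libraries and 5 over YMdIDR. Among ependymal markers Dnah11 was called higher (2.89), 1 of 5. The median log2 fold change was 1.21 for oligodendrocyte, 0.09 for microglial, 0.02 for cortical projection neuron and -1.01 for choroid plexus markers. The part of these cell types in the values of the striatal genes was not tested.

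NSC-YAP holds cultured progenitors, so the 2 comparisons with it set tumour tissue against a culture. They share the NSC-YAP libraries with each other and a tumour group each with the comparison above, and their values are given side by side. YAP-M was called higher for 4 of the 9 genes (3 of 8 without Gpr6) and lower for 1, beside 28.9% and 21.6% of all tested genes. YMdIDR was called higher for 3 and lower for 1, beside 27.4% and 20.4%. The median log2 fold change of the 9 genes was 1.36 for YAP-M and -0.24 for YMdIDR, beside 0.10 and 0.13 over all genes.

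Penk was higher in both, by a log2 fold change of 4.21 ± 0.46 in YAP-M (edgeR adjusted p = 9.89e-06) and 2.34 ± 0.47 in YMdIDR (0.00101). Tac1, without a count in NSC-YAP, was at least 60.1-fold higher in YAP-M (edgeR adjusted p = 0.000274) and at least 7.67-fold higher in YMdIDR (0.0215). Drd2 counts gave a ratio of 29.3 for YAP-M (95% counting interval 7.95 to 245, edgeR adjusted p = 0.00151) and 11.2 for YMdIDR (2.84 to 96.2, 0.0305). In YMdIDR the Drd2 call was lost without YMdIDR replicate 1 (edgeR adjusted p = 0.157), without NSC-YAP replicate 2 (0.164) and with the replicate number as a block (0.0682). The Tac1 call there was lost without YMdIDR replicate 1 (edgeR adjusted p = 0.0827) and without NSC-YAP replicate 1 (0.0773) or 2 (0.0791). Gpr6 was higher in YAP-M with a log2 fold change of 2.15 ± 0.81 (edgeR adjusted p = 0.0318) and stood at 0.31 ± 1.03 in YMdIDR (0.799), where leaving out YMdIDR replicate 1 turned its sign to -1.65. The Gpr6 call in YAP-M rests on 4 counts in NSC-YAP and was lost without YAP-M replicate 2 (edgeR adjusted p = 0.0646), NSC-YAP replicate 1 (0.0577) or NSC-YAP replicate 2 (0.197).

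Syndig1l was the gene that fell in both, with a log2 fold change of -2.93 ± 0.51 in YAP-M (edgeR adjusted p = 0.000325) and -3.79 ± 0.60 in YMdIDR (0.000178). It was called in each of 18 alternative fits of either comparison. Group means were 2.08 ± 0.340 CPM in YAP-M and 1.13 ± 1.42 CPM in YMdIDR, against 15.9 ± 1.28 CPM in NSC-YAP.

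The remaining 4 genes passed neither test. Drd1 had a log2 fold change of 0.32 ± 0.52 in YAP-M (edgeR adjusted p = 0.592) and -1.11 ± 0.60 in YMdIDR (0.118). Adora2a had -0.18 in YAP-M (edgeR adjusted p = 0.699) and -0.88 in YMdIDR (0.0857). Rgs9 had 0.57 in YAP-M (edgeR adjusted p = 0.145) and -0.24 in YMdIDR. Ppp1r1b had 1.36 ± 0.61 in YAP-M (edgeR adjusted p = 0.0623), where its libraries did not overlap and 7 of 18 alternative fits called it, and -0.35 ± 0.62 in YMdIDR (0.626); without YMdIDR replicate 1 it was called lower in YMdIDR, at -1.47 (0.0185). As shares of their own SVZ means, Drd1 and Adora2a thus stood at 1.90% to 3.42% in the cultured progenitors, while Drd2, Tac1 and Penk stood at 0 to 0.138%.

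**Figure D3:**
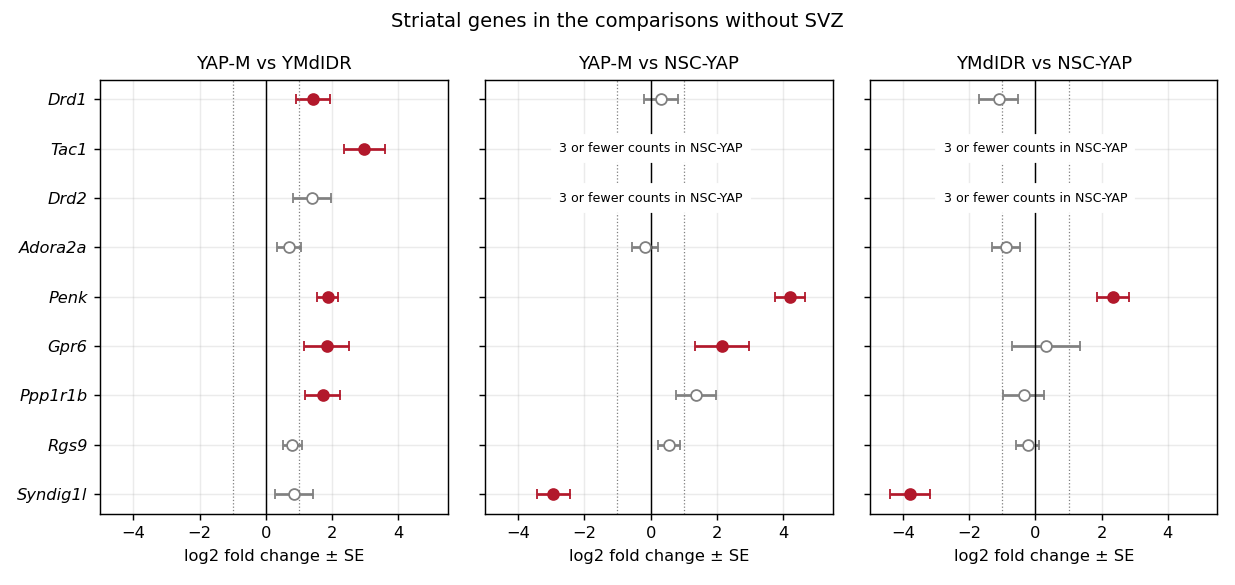
Log2 fold change (points) with its SE (bars) for each gene in the 3 comparisons without SVZ, from edgeR's quasi-likelihood fit over 12 libraries; filled red points were called, open grey points were not, and dotted lines mark a log2 fold change of 1 in either direction. Penk is called higher in all 3 panels, from 1.87 to 4.21, and Syndig1l is called lower in both comparisons with NSC-YAP; Drd2 and Tac1 are not drawn where NSC-YAP held 3 or fewer counts.

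Within the tumours the ratios of direct-pathway to indirect-pathway genes varied between libraries. Drd1 counts per Drd2 count were 4.35, 2.15, 0.879 and 0.5 in YAP-M and 0.96, 5 and 4.33 in YMdIDR, against 1.09, 1.06 and 0.970 in SVZ. The spread within YAP-M was thus wider than in SVZ, with replicates 1 and 2 on the side of Drd1. Tac1 counts per Penk count moved the other way, at 0.2, 0.112, 0.331 and 0.607 in YAP-M and 0.211, 0.0364 and 0.0465 in YMdIDR, against 0.0974, 0.106 and 0.11 in SVZ. In YMdIDR replicates 2 and 3 these ratios rest on few counts, 3 of Drd2 in each library and 2 and 4 of Tac1. Drd1, Adora2a, Gpr6, Ppp1r1b and Rgs9 were higher in YAP-M replicates 1 and 2 than in replicates 3 and 4. Tac1 and Syndig1l were higher in replicates 3 and 4. Gad2, which makes the transmitter GABA, was chosen after its values were seen and moved with Tac1, at 16.7, 11.5, 39.3 and 42.0 CPM in the 4 YAP-M libraries. Summed oligodendrocyte markers did so too, at 678, 677, 1692 and 3468 CPM, and their part in the split was not tested.

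**Figure D4:**
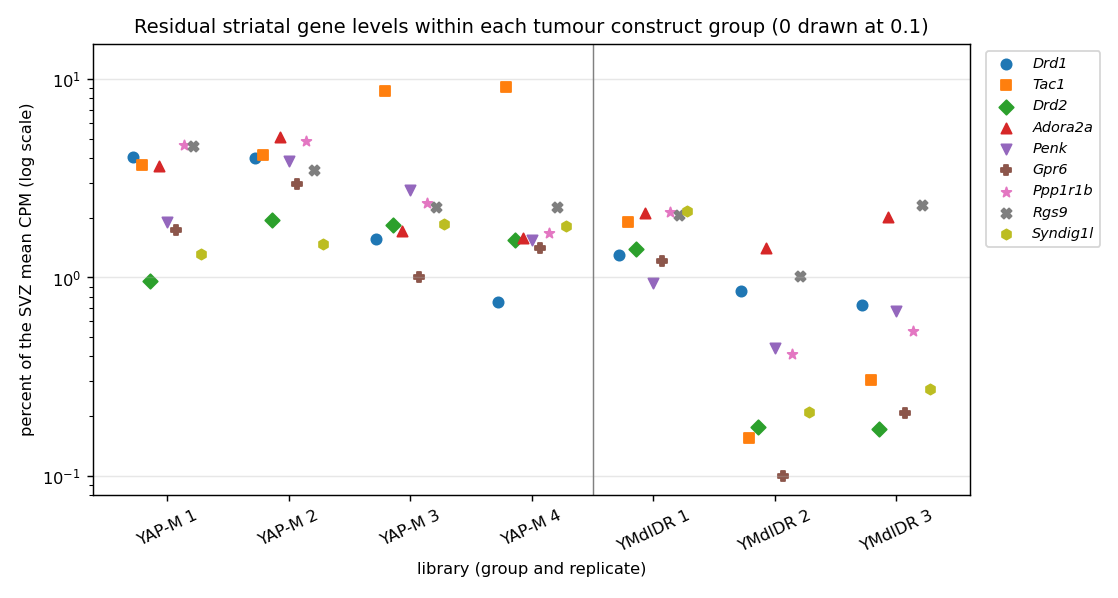
Percent of the SVZ mean CPM (log axis) for each of the 9 genes in the 4 YAP-M and 3 YMdIDR libraries, with a 0 drawn at 0.1. Tac1 reaches 8.73% and 9.06% in YAP-M replicates 3 and 4 while Drd1 is at 1.56% and 0.748% there, and YMdIDR replicate 1 lies above replicates 2 and 3 for Drd2, Tac1, Gpr6, Ppp1r1b and Syndig1l.

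Other genes of medium spiny neurons were taken from 4 lists of transcription factors, receptors and peptides, G-protein and cyclic AMP signalling, and channels and GABA genes. Of 50 listed genes 49 were in the files and 47 were tested. In YAP-M 43 of the 47 were lower than in SVZ and 1 was higher, beside 28.9% and 25.8% of all genes, with a median log2 fold change of -3.97 (all genes -0.04). In YMdIDR 44 were lower and 1 higher, beside 29.6% and 26.9%, with a median of -5.14 (all genes -0.01). In NSC-YAP 42 were lower, beside 27.6%, with a median of -4.45 (all genes -0.10). None was called higher in NSC-YAP by edgeR or DESeq2, beside 17.5% of all genes, and 1 was higher in edgeR at an unadjusted p under 0.05.

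The striatal transcription factors Bcl11b and Rxrg were among those that fell most clearly. Bcl11b, needed for the maturation of medium spiny neurons, had 2.13 to 5.78 CPM in YAP-M against 158 to 170.0 CPM in SVZ, a log2 fold change of -5.22 ± 0.29 (edgeR adjusted p = 6.79e-08). Rxrg, a retinoid receptor, fell by 5.15 ± 0.21 on the log2 scale in YAP-M (edgeR adjusted p = 1.01e-08). Pde10a, the phosphodiesterase of striatal cyclic nucleotides, fell by 5.17 ± 0.29 in YAP-M (7.23e-08), and Gnal, the stimulatory G-protein subunit through which the Drd1 and Adora2a receptors act, fell by 4.40 ± 0.22 (3.42e-08). Among the channels Scn4b, a sodium channel subunit, fell by 5.55 ± 0.43 in YAP-M (1.18e-06) and had 276 to 298 CPM in SVZ. The gene above SVZ was Ikzf1, a lineage factor of both striatal and blood cells, with 17.3 to 27.3 CPM in YAP-M and 22.4 to 23.9 CPM in YMdIDR against 6.31 to 9.19 CPM in SVZ. It had no count in NSC-YAP, where the microglial Cx3cr1 stood at 0 and 0.0815 CPM.

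Between YAP-M and YMdIDR 19 of the 47 were called higher in YAP-M and 2 lower, beside the 9.61% and 6.78% of all genes, with a median log2 fold change of 0.80 (all genes 0.01). Each of the 4 lists had 4 or 5 genes called higher. Pde10a was one, with 6.64 to 16.0 CPM in YAP-M against 2.03 to 3.80 CPM in YMdIDR (log2 fold change 2.04 ± 0.30, edgeR adjusted p = 0.000435). Rarb, the retinoic acid receptor of the striatum, rose by 2.28 ± 0.38 in YAP-M (edgeR adjusted p = 0.000944), and Isl1, a factor of direct-pathway and cholinergic neurons, by 3.23 ± 0.72 (0.00546). Gad2 rose by 3.11 ± 0.54 in YAP-M (edgeR adjusted p = 0.00112), Scn4b by 2.92 ± 0.51 (0.00155) and the peptide gene Cartpt by 2.77 ± 0.45 (0.000794).

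The exceptions were Chrm4 and Ano3. Chrm4, the M4 muscarinic receptor of direct-pathway neurons, had 0.519 to 1.28 CPM in YAP-M against 1.62, 11.1 and 7.15 CPM in YMdIDR, a log2 fold change of -3.07 ± 0.52 (edgeR adjusted p = 0.000995). It was highest in YMdIDR replicates 2 and 3, where Drd2 and Tac1 were lowest. Ano3, of the anoctamin family and named after its values were seen, fell by 1.43 ± 0.36 in YAP-M (edgeR adjusted p = 0.00816). For pan-neuronal markers the same comparison gave 1 gene higher and 2 lower of 10, with a median log2 fold change of 0.76.

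Against NSC-YAP the lists split in both directions. Of the 47 genes 21 were higher in YAP-M and 11 lower, beside 28.9% and 21.6%, and 18 were higher in YMdIDR and 15 lower, beside 27.4% and 20.4%. Oprd1, among the 21, had 23 counts over YAP-M, 5 over YMdIDR and none in NSC-YAP, and reached the filter through SVZ alone. How many other listed genes did so was not counted. Among the 14 signalling genes 3 were higher and 6 lower in YAP-M, and 3 were higher and 7 lower in YMdIDR. Pde1b, a calcium-dependent phosphodiesterase, had 17.9 to 24.7 CPM in YAP-M and 10.0 to 18.0 CPM in YMdIDR against 192 and 187 CPM in NSC-YAP, a fall of 3.12 ± 0.19 on the log2 scale in YAP-M (edgeR adjusted p = 1.02e-07). Sp9, which medium spiny neurons of the indirect pathway require, fell by 3.94 ± 0.43 in YAP-M (8.9e-06) and by 5.48 ± 0.54 in YMdIDR (4.8e-06). In the other direction Scn4b, without a count in NSC-YAP, was at least 101-fold higher in YAP-M and at least 13.2-fold higher in YMdIDR, and Pdyn, the prodynorphin gene of the direct pathway, was at least 44.6-fold and 27.8-fold higher. The cultured progenitors thus held 6 of the 14 signalling genes above YAP-M and 7 above YMdIDR, while 3 were below each tumour group. Syndig1l was also above the tumours in culture, and the peptide genes Tac1 and Pdyn had no counts there.

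Family members show which receptor or peptide was measured. Of 19 paralogs 15 were tested, and 13 were lower and 1 higher in YAP-M than in SVZ, beside 28.9% and 25.8%, with a median log2 fold change of -3.17. Against YMdIDR 3 were called higher in YAP-M, beside 9.61%. Rgs6, of the same RGS subfamily as Rgs9, rose by 2.07 ± 0.40 in YAP-M (edgeR adjusted p = 0.00203). Rgs7, of the same subfamily, rose by 1.39 ± 0.38 (edgeR adjusted p = 0.0125) and Pnoc, the prepronociceptin gene, by 1.42 ± 0.49 (0.0353). In both comparisons with NSC-YAP 9 paralogs were called higher and 4 lower, beside 28.9% and 21.6% for YAP-M and 27.4% and 20.4% for YMdIDR. Drd5 was among the 9 in both, with 29 counts over the YAP-M libraries, 16 over YMdIDR and 0 in NSC-YAP. It reached the filter on low counts through SVZ alone.

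Adora1, the inhibitory adenosine receptor, had 13.1 to 27.1 CPM in YAP-M and 5.41 to 21.2 CPM in YMdIDR against 64.7 and 69.1 CPM in NSC-YAP. Its log2 fold change was -1.86 ± 0.39 in YAP-M (edgeR adjusted p = 0.00115) and -2.34 ± 0.43 in YMdIDR (0.000501), both called, where Adora2a was called in neither. Adora3, known from mast cells and microglia, had 1.99 to 4.52 CPM in YAP-M and 4.77 to 5.26 CPM in YMdIDR against 1.08 to 1.95 CPM in SVZ, and no count in NSC-YAP. Ppp1r1a, the phosphatase inhibitor related to DARPP-32, had 4.48 to 6.72 CPM in YAP-M against 95.1 and 89.3 CPM in NSC-YAP, a log2 fold change of -4.05 ± 0.52 (edgeR adjusted p = 3.64e-05). Ppp1r1b was not called there, and the difference between these relatives was not tested. Drd5, the other receptor of the D1 class, had 0.0370 to 0.519 CPM in YAP-M and no count in NSC-YAP.

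The 9 genes followed 1 profile over the libraries to differing degrees. As a description over 12 libraries, which fall into SVZ and the rest, the Pearson correlation of log2(CPM + 1) with the mean standardized profile of the other 8 genes was 0.994 for Gpr6 and 0.993 for Rgs9, and lowest for Tac1 (0.941) and Syndig1l (0.870). Outside the lists, the 8 genes most like the mean profile were Synpr, Serpina9, Ankrd63, Shcbp1l, Agtpbp1, Lrrc10b, Pcp4 and Cntn5, at 0.992 to 0.994. Synpr, a synaptic vesicle protein gene, averaged 5.37 CPM in YAP-M, 2.52 CPM in YMdIDR and 4.20 CPM in NSC-YAP, against 104 CPM in SVZ. Of 13977 candidate genes 1492 had a correlation over 0.9, so such a profile was common.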

How the data were processed

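RNA-seq of 12 mouse libraries was analysed (4 YAP-M, 3 YMdIDR, 2 NSC-YAP, 3 SVZ), and the 5 ChIP and CUT&RUN samples of the series were not analysed here. Each deposited table holds the counts of 1 library per gene, as whole numbers without normalization, with chromosome, start, end, strand and exonic length. The submitters' processing notes name TopHat2 and the mm10 build. The sources used here do not give versions, the counter, or how strand and multiply mapped reads were treated, so reads of paralogs and of overlapping or antisense genes may be shared. Each table has 53090 entries, and 453 of them share a symbol and were summed, which left 52850 symbols.

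Groups and replicate numbers came from the sample titles. The filter kept the 18329 genes that reached 1 CPM in 2 libraries or more, which edgeR 4.0.16 (R 4.3.3) tested by quasi-likelihood, with 1 coefficient per group, all 12 libraries in 1 fit and TMM factors of 0.826 to 1.13. P-values were adjusted by Benjamini-Hochberg over all tested genes, and genes past an adjusted p of 0.05 were called when their log2 fold change was 1 or more in either direction. For a group without counts, the fold was bounded by setting that group to 3 counts in all. For 1 to 3 counts the ratio of summed counts is given with an exact 95% interval. Floors and intervals cover counting error only, since PCR copies are not independent molecules. No replicate pair agreed within sampling noise (chi-square per gene 4.17 to 84.2), so each library counts as 1 sample. The fit was tested on simulated counts.

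The genes, the gene lists and the tests were chosen with earlier results of these data known. Named genes are the 9 members, up to 4 genes of each list with the smallest p in a comparison, paralogs needed to describe a family, and the 8 genes outside the lists with the most similar profile. Genes outside this rule are said to be chosen after their values were seen. Alternatives were median-ratio scaling, DESeq2 1.42.0, no filter, a minimum of 5 CPM, the compared groups alone, the replicate number as a block, the adjusted p alone, and fits that left out 1 library at a time. Plots were made in matplotlib 3.10.9.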

Additional observations from a re-analysis of the deposited data

Results flagged for a closer look

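Among the YAP-M tumours, the summed level of the 11 striatal channel and GABA genes was 219.5 CPM in replicate 4, against 147.97, 156.8 and 159.6 CPM in the other 3 libraries. The gap between replicate 4 and its nearest neighbour took up 0.837 of the whole range of the group, above Dixon's 95% critical value for 4 samples. It was the single set past that limit among 27 examined, where chance gives about 1 in 20. Within this sum, Gad1 was 16.6, 10.9, 28.4 and 35.8 CPM and Slc32a1, the vesicular GABA transporter, 5.48, 3.78, 12.8 and 13.4 CPM in YAP-M replicates 1 to 4, both chosen after their values were seen. The summed pan-neuronal level was 541, 330 and 551 CPM in replicates 1 to 3 and 847 CPM in replicate 4, and its part in the value was not tested.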

How the results depend on the processing

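Most values kept their direction and their side of the threshold. Members called higher in YAP-M than in YMdIDR numbered 5, but 2 with the compared groups alone and 2 to 7 when single libraries were left out. Those called higher in YMdIDR than in NSC-YAP numbered 3, but 1 with the compared groups alone and 1 to 3 without single libraries, and those called lower 1 to 2. Fewer libraries entered those fits, and no share over all genes from the same fits stands beside these counts. The other striatal genes called lower in YAP-M than in YMdIDR numbered 2, but 4 at the adjusted p alone and 1 to 2 without single libraries. At the adjusted p alone, other striatal genes called higher were 2 in YMdIDR and 1 in NSC-YAP, each against SVZ, and 0 to 1 in NSC-YAP without single libraries. Leaving out single libraries turned the sign of 4 log2 fold changes that were not called. Adora2a in YAP-M against NSC-YAP ran from -0.51 to 0.0634, positive without YAP-M replicate 3 or 4 (0.0409). In YMdIDR against NSC-YAP, Gpr6 ran from -1.65 to 1.21, negative without YMdIDR replicate 1 or NSC-YAP replicate 2 (-0.26), Ppp1r1b from -1.47 to 0.0279 and Rgs9 from -0.45 to 0.0421, both positive without YMdIDR replicate 2. The cause was not tested. Over all genes, those lower in YAP-M than in YMdIDR numbered 1242, but 819 with a minimum of 5 CPM, and 3768 higher and 4199 lower passed the adjusted p alone, where 1761 and 1242 were called. The adjusted p alone gave 6326 lower genes for YAP-M and 5792 for YMdIDR against NSC-YAP (3951 and 3744 called), and 5508 higher in NSC-YAP than in SVZ (3199 called). Depth limits Gpr6, Drd2 and Tac1, whose counts in YMdIDR and NSC-YAP were few; with the compared groups alone all 3 had no value in YMdIDR against NSC-YAP.

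Replicate numbers were not shown to pair the libraries, since deviations of same-numbered libraries correlated at -0.060 to 0.351. With the replicate number as a block, members called higher numbered 4 in YAP-M against YMdIDR, 5 in YAP-M and 2 in YMdIDR against NSC-YAP. These counts also have no share over all genes of that fit beside them. The log2 fold change of Adora2a in YAP-M against NSC-YAP turned to 0.0923 with the block (edgeR adjusted p = 0.836).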

Other observations

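Interneurons are the other neurons of the striatum, and 3 of 10 interneuron markers were called higher in YAP-M than in YMdIDR, beside 9.61% of all tested genes. Lhx8, a factor of cholinergic neurons, had 2.72, 3.82, 2.35 and 1.78 CPM in YAP-M, against 0.385, 0.586 and 0.0883 CPM in YMdIDR. The groups did not overlap, and the log2 fold change was 2.90 ± 0.50 (edgeR adjusted p = 0.00111). Sst, the somatostatin gene, rose by 1.70 ± 0.35 in YAP-M (edgeR adjusted p = 0.00355) and Chat, the acetylcholine-synthesising enzyme gene, by 2.39 ± 0.71 (0.0209). Lhx6, a factor of interneurons from the medial ganglionic eminence, was above SVZ in YAP-M, with 24.7 to 43.5 CPM in YAP-M against 12.6 to 17.3 CPM in SVZ (log2 fold change 1.23 ± 0.20, edgeR adjusted p = 0.000198). Lhx6 was the only interneuron marker called higher there. Sst, Npy, Pvalb, Nos1, Chat, Slc5a7 and Slc18a3 were called lower in YAP-M than in SVZ, and Lhx8 and Vip were called in neither direction. All 9 striatal genes were below SVZ in the same libraries.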
